A study of Mus musculus with 24 samples.

Results

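Chromatin accessibility was compared between long-term haematopoietic stem cells (LT-HSCs) and common myeloid progenitors (CMPs) of mice that lack Daxx. The samples were those titled Daxx F/F LT.HSC without a time and Daxx F/F CMP, which made 4 of the 24 libraries of the series, 2 per population. Both populations came from the bone marrow of C57BL/6 mice with both Daxx alleles floxed and a Cre recombinase fused to an oestrogen receptor at the Rosa26 locus (Daxx F/F;RosaCreERT2). The mice received tamoxifen and, per the study's methods, were used 3 weeks later. Rosa26 is active in most cell types, so deletion was not limited to blood cells. Daxx-WT mice (Daxx +/+) carried the same Cre and had the same treatment, and their LT-HSCs and CMPs, again 2 libraries each, are given beside the knockout. LT-HSCs were sorted as lineage-negative c-Kit+ Sca-1+ cells that were negative for CD48 and positive for CD150, after enrichment on c-Kit beads. CMPs were lineage-negative, c-Kit+, Sca-1- and CD34+, with no CD16/32, and no bead step is described for them.

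Daxx places the histone variant H3.3 into chromatin, mainly at silent and repetitive DNA, together with Atrx. An LT-HSC that becomes a CMP leaves self-renewal and enters the path to granulocytes, monocytes, erythroid cells and megakaryocytes. The transcription factors PU.1 (encoded by Spi1), C/EBPα and Runx1 open enhancers of myeloid genes along this path, while Hlf, Mecom, Meis1 and Hox proteins act in stem cells.

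ATAC-seq marks open DNA by the insertion of adapters with the Tn5 transposase, and a peak is a stretch with more insertions than its surroundings. The authors deposited 1 peak list for each population, pooled over its 2 libraries and holding positions alone. There is therefore no value per library, no spread between mice and no test here, and the intervals given are 95% Wilson intervals that cover counting over peaks only. A region present in a few cells and one weakly open in all cells cannot be told apart in such a list, and absence from a list does not show that the DNA was closed. The Daxx-KO LT-HSC list had 70455 peaks with a median width of 916 bp, and the Daxx-KO CMP list had 50590 peaks with a median of 661 bp. The Daxx-WT lists had 65455 and 66070 peaks, with medians of 889 and 651 bp. CMP libraries had an additional single-read sequencing run, so cell type and sequencing cannot be told apart, and the depth behind the lists is unknown.

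The labels were compared with the data first. The peak over the Daxx promoter (Daxx, mm10 chromosome 17, 33909414 to 33915590) ended at 33910037 in the Daxx-KO LT-HSC list and at 33909980 in the Daxx-KO CMP list. It ended at 33910328 in both Daxx-WT lists. All 8 stem cell markers (Hlf, Mecom, Procr, Slamf1, Fgd5, Ctnnal1 and Vwf among them) had a promoter peak in Daxx-KO LT-HSCs, and 6 of the 8 had one in Daxx-KO CMPs. Of 8 myeloid progenitor markers, 4 had a promoter peak in Daxx-KO LT-HSCs and 6 in Daxx-KO CMPs. Elane, the gene of neutrophil elastase, and Csf1r, the gene of the macrophage colony-stimulating factor receptor, had none in either. Of 6 markers of mature cells that the gates remove, the T cell gene Cd3e and the neutrophil gene Ly6g had no promoter peak. The myeloid integrins Itgam and Itgax had one in both populations.

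Peaks are called opened where they lay in the CMP list alone, closed where they lay in the LT-HSC list alone, and shared where peaks of both lists overlapped by at least 1 bp. Distal peaks lay more than 1 kb from every annotated start site. Among 55836 distal regions of the Daxx-KO pair, 23841 closed, which was 42.7% of the regions and 49.1% (48.6 to 49.5) of the 48583 distal LT-HSC peaks. A further 24742 were shared, and 7253 opened, which was 13.0% of the regions and 22.0% (21.6 to 22.5) of the 32925 distal CMP peaks. Thus 3.29 distal regions closed for each that opened, a log2 ratio of -1.72. In Daxx-WT, 15289 distal regions closed and 15803 opened, a log2 ratio of 0.05, so that Daxx-KO was lower by -1.76 on the log2 scale.

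Lists of unlike length leave unlike numbers of unshared peaks, so the counts were also taken at equal length. In Daxx-KO this shortened the LT-HSC list alone, as the CMP list had 50590 peaks. With both Daxx-KO lists reduced to their 50590 widest peaks, 12935 distal regions closed and 13504 opened, a log2 ratio of 0.06, against 0.03 in Daxx-WT lists of the same length. The difference between the genotypes was then 0.03. Lists of the same length leave nearly equal numbers of unshared peaks on both sides, so these small values were largely set by construction. They do not test the excess of closed regions. In Daxx-KO, shortening the LT-HSC list can only add opened regions and remove closed ones. Opened regions at equal length include those that overlap a narrower LT-HSC peak of the full list. With the Daxx-KO LT-HSC list from 3 days post induction (3 d.p.i.; 44326 peaks) in place of the untimed one, the log2 ratio was 0.88. The Daxx-WT ratio with its own list at 3 d.p.i. was 3.34, so that the difference between the genotypes was -2.46 in that setting. The count of closed regions therefore cannot be read apart from the number of peaks called, and values at equal length are given beside the lists and the genes whose direction they change.

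**Figure D1:**
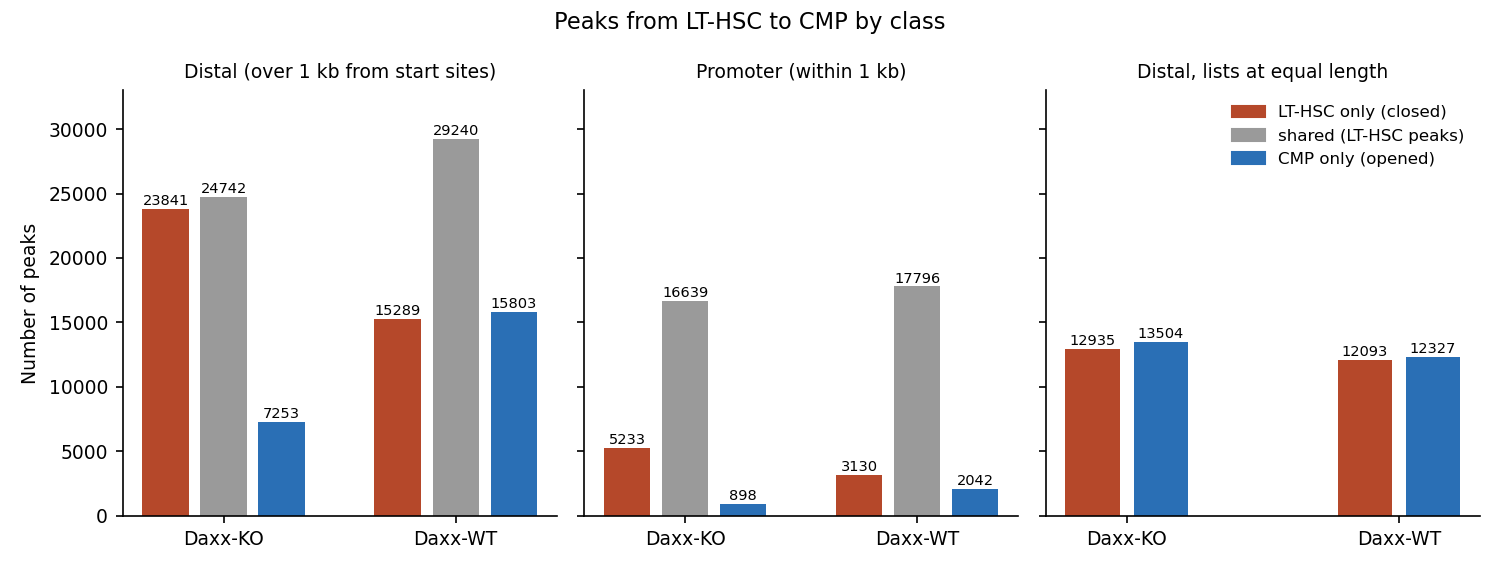
Number of peaks (y axis) by class in Daxx-KO and Daxx-WT, for distal peaks, promoter peaks and distal peaks after every list was reduced to its 50590 widest peaks. Closed regions outnumber opened ones in Daxx-KO (23841 against 7253) but not at equal length (12935 against 13504), where similar counts largely follow from the equal lengths.

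Promoters changed less often than distal regions. Among 22770 promoter regions (within 1 kb of a start site), 5233 closed (23.0%), 16639 were shared and 898 opened (3.94%). At equal length 3626 closed and 1925 opened. Of 15237 protein-coding genes with a promoter peak in either Daxx-KO list, 1729 (11.3%) lost it between LT-HSCs and CMPs, and 135 (0.886%) gained one.

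Genes of granulocytes and monocytes were among the 135. Of 230 genes in 16 lists of blood cell types and functions, 12 gained a promoter peak in Daxx-KO CMPs. At equal length all 12 still count as gained, which is so by construction because only the LT-HSC list is shortened. Ctsg and Ms4a3 came from the 10 primary granule genes, which encode proteins made early in neutrophil development: Ctsg encodes the protease cathepsin G. Camp, Mmp8 and Fcnb came from the 16 late neutrophil genes, with Camp encoding the antimicrobial peptide cathelicidin and Mmp8 the neutrophil collagenase. Cebpe, the C/EBP factor of late granulocyte development, and Cebpb, the C/EBP factor of emergency granulopoiesis, gained one from the 15 granulocyte and monocyte fate factors. Ly6c2, Ccr2 and Siglech, surface genes of monocytes and plasmacytoid dendritic cells, came from 12 monocyte and dendritic genes. From the same list Cd14, a monocyte surface gene, and F13a1 lost their promoter peak, also at equal length. Ly6c2 has a close copy in Ly6c1, so its peak is uncertain. Gata1, the master factor of erythroid cells, and Rag1, a recombinase gene of lymphoid cells, were the other two. The Daxx-WT CMP list held a promoter peak for all of them except Fcnb and Rag1, and the Daxx-WT LT-HSC list for Cebpb alone.

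Receptors of stem cells lost theirs. Procr (the endothelial protein C receptor), Tek and Tie1 (the receptor of angiopoietins and its partner) had a promoter peak in Daxx-KO LT-HSCs and none in Daxx-KO CMPs, also at equal list length. The Daxx-WT CMP list held a promoter peak of all of them. Of the 26 genes of stem cell identity and self-renewal, 24 had a promoter peak in Daxx-KO LT-HSCs and 20 in Daxx-KO CMPs, against 24 and 23 in Daxx-WT. In the platelet lineage, Gp1bb and Selp lost theirs, and among 25 interferon-stimulated and sensor genes so did Ifit3, Isg15, Oas3 and Ifi44. Of these, Gp1bb, Ifit3 and Isg15 also lost theirs in Daxx-WT, while Selp, Oas3 and Ifi44 kept a promoter peak in the Daxx-WT CMP list. Among all genes with a promoter peak in either Daxx-KO list, 11.3% lost it. At equal length Selp, Isg15 and Oas3 were in neither list. No gene of the 13 cell cycle genes, 8 AP-1 factors and 12 housekeeping genes changed its promoter state.

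The upstream sequences of 4 of these promoters are shown because each holds a searched motif. They are the 150 bases before the RefSeq start (GRCm38.p6), in the direction of the gene, with capitals marking matches to C/EBP (TTGCNNAA), MYB (AACTGCC), IRF (GAAANNGAA) or AP-1 (TGANTCA) letters on either strand. The first 3 opened and Ifit3 closed.
Ctsg, chr14:56102575-56102724, minus strand: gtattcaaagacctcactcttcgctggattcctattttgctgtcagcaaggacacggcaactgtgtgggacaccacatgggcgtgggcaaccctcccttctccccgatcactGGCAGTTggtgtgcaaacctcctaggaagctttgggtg
Mmp8, chr9:7558279-7558428, plus strand: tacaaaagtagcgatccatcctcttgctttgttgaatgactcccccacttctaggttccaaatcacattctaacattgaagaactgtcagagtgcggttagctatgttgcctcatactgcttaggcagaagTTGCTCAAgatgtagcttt
Fcnb, chr2:28084879-28085028, minus strand: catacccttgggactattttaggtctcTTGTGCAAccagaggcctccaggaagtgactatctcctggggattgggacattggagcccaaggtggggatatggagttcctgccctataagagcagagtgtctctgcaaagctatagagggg
Ifit3, chr19:34583379-34583528, plus strand: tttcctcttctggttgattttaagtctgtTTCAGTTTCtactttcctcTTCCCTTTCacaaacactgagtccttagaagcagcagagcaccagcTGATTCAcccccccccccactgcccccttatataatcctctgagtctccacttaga

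The IRF letters were in 3.95% of all 32851 RefSeq promoter windows of this length, the AP-1 letters in 4.24%, the C/EBP letters in 5.46% and the MYB letters in 2.07%. Ctsg and Fcnb hold a MYB and a C/EBP match respectively, Mmp8 a C/EBP match, and Ifit3 a pair of IRF matches beside an AP-1 match. RefSeq windows were matched for 9 of the 12 opened and 12 of the 17 closed promoters. Over these, C/EBP letters were in 2 opened and 0 closed, AP-1 letters in 0 and 4, and IRF letters in 0 and 3. A match is a description of the letters and does not show that a factor was bound.

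Distal regions were read with respect to their letters next. Each window took 100 bp on either side of the peak centre, and 14 motifs were searched on both strands. PU.1 letters (GAGGAAGT) lay in 12.5% (11.7 to 13.3) of opened regions, 6.54% of shared regions and 4.65% (4.39 to 4.92) of closed ones, beside 6.50% of all distal regions. C/EBP letters lay in 15.5% of opened and 8.27% of closed regions, with 9.40% over all. RUNX letters (TGTGGTT) lay in 14.1% and 8.12%, with 9.63% over all. The letters of KLF factors (GGGNGTGGC) lay in 2.72% and 1.30%, with 1.78% over all. All 4 were more frequent in opened regions, also at equal list length. There PU.1 letters lay in 10.8% of opened and 4.11% of closed regions, and C/EBP letters in 12.6% and 8.11%. RUNX letters lay in 12.5% and 8.13%, and KLF letters in 2.49% and 1.35%. The same order held in Daxx-WT with lists as deposited, so it was not particular to the knockout. In Daxx-WT PU.1 letters lay in 12.3% of opened and 4.85% of closed regions, and C/EBP letters in 14.7% and 8.66%. RUNX letters lay in 11.1% and 8.53% there, and KLF letters in 2.52% and 1.14%.

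HOX-PBX letters (TGATTNAT), bound by Hox proteins with their Pbx partners, went the other way. They lay in 3.07% (2.86 to 3.30) of closed and 2.22% (1.91 to 2.58) of opened regions. At equal length they stayed lower in opened regions (2.92% of closed against 2.17% of opened). In Daxx-WT they lay in 3.44% of closed and 2.35% of opened regions. The letters of the architectural factor CTCF (CAGGNGGC) lay in 6.98% of closed and 4.87% of opened regions, but in 5.50% and 8.22% at equal length. Opened regions at equal length include regions that are shared in the full lists. The CMP peaks of such shared regions held CTCF letters in 9.29%. GATA letters (AGATAAG) lay in 4.08% and 3.45%, with overlapping intervals. At equal length they lay in 4.58% of closed and 3.17% of opened regions. MYB letters lay in 3.27% of closed and 4.11% of opened regions. AP-1 letters lay in 8.61% and 9.78%, and with overlapping intervals at equal length (8.40% and 8.78%). Opened regions had a median width of 500 bp, against 718 bp for closed and 896 bp for shared regions. Opened widths come from CMP peaks, and closed and shared widths from LT-HSC peaks. Over the whole lists, the median was 661 bp for CMP and 916 bp for LT-HSC peaks. Measured on CMP peaks, shared regions had a median of 588 bp. The GC content of opened, closed and shared regions was 48.8%, 47.8% and 49.8%. Their distances to the nearest start site (20.1, 19.4 and 16.4 kb) also lay close together. Repeat bases made up 16.4% of the windows of opened, 15.6% of closed and 13.4% of shared regions.

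**Figure D2:**
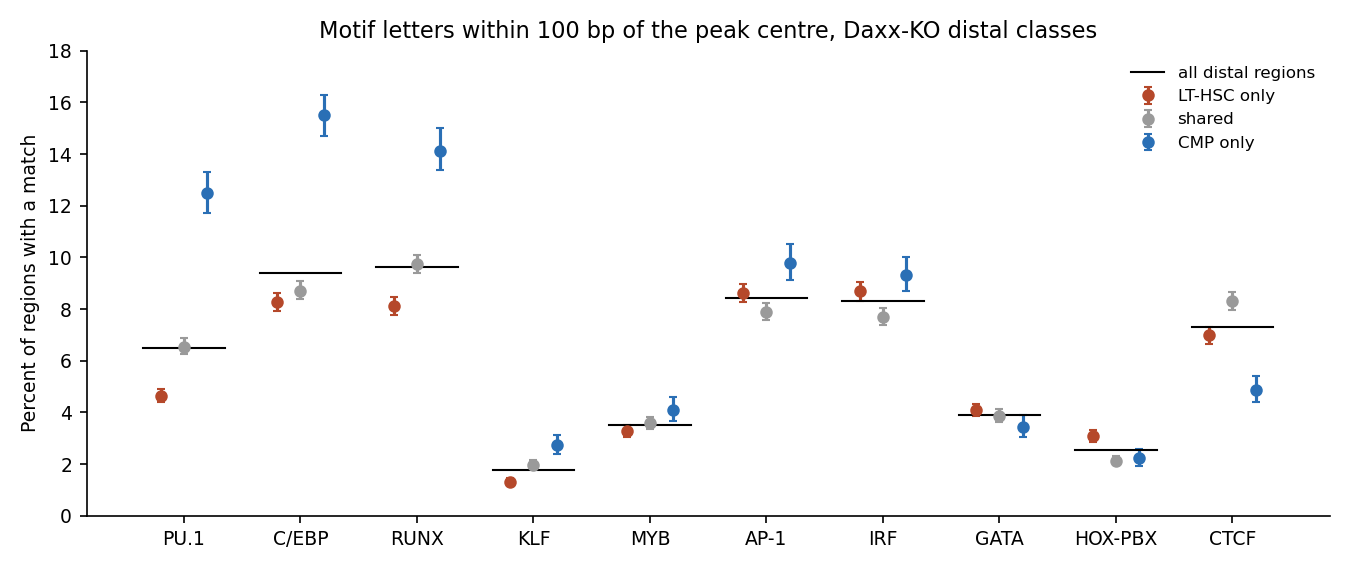
Percent of Daxx-KO distal regions with at least 1 match (y axis) for 10 motifs (x axis), by class; points are shares, bars are 95% Wilson intervals over regions and black lines are the share over all distal regions. PU.1, C/EBP and RUNX stand highest in opened regions (12.5%, 15.5% and 14.1%).

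Distal regions at 6 loci show what opened and what closed. Each is the stretch of 50 bases on either side of the peak centre on the plus strand of mm10, with capitals marking every match to the searched letters. Regions at Spi1, Csf3r, Cdk6 and Meis1 opened, and those at Mecom and Slamf1 closed.
Spi1 intron, opened, C/EBP and RUNX, chr2:91098315-91098415: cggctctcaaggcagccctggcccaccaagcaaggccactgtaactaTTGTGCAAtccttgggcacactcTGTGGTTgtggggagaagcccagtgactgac
Csf3r intron, opened, CTCF and PU.1, chr4:126030853-126030953: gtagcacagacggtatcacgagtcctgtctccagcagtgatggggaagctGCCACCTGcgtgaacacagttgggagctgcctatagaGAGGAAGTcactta
Cdk6 intron, opened, PU.1 and AP-1, chr5:3502785-3502885: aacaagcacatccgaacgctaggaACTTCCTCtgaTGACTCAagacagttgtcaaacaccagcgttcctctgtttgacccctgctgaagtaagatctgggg
Meis1 intergenic, opened, PU.1, chr11:19155700-19155800: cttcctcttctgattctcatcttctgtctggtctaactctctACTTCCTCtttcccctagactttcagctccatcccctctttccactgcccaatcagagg
Mecom intron, closed, C/EBP, chr3:29972481-29972581: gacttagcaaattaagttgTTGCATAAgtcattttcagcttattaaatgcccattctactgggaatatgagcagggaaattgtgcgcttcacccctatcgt
Slamf1 intron, closed, GATA, chr1:171773300-171773400: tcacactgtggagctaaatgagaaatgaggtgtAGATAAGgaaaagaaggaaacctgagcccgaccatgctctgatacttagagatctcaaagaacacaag

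The 4 opened regions also lay in the Daxx-WT CMP list and not in the Daxx-WT LT-HSC list. Those at Spi1, Cdk6 and Meis1 were in the GMP list of Daxx-KO (granulocyte and monocyte progenitors, the next stage), and the one at Csf3r was not. The closed Mecom region lay in the Daxx-WT LT-HSC list alone, and the Slamf1 region (the gene of CD150) lay in both Daxx-WT lists.

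Genes were then described by the distal regions nearest to their start sites. Of 13214 protein-coding genes with a Daxx-KO distal region, 1528 (11.6%) had more opened than closed regions and 8135 (61.6%) more closed than opened. At equal length these shares were 37.2% and 32.9%.

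Mecom, a zinc finger factor needed for self-renewal, had the largest excess of closed regions, with 27 closed, 7 shared and 0 opened in Daxx-KO. Daxx-WT had 24 closed, 11 shared and 2 opened at Mecom. Of the 27 closed regions, 20 were in the Daxx-WT LT-HSC list, 4 in the Daxx-WT CMP list and 7 in neither. The other 9 genes at this end were Pde4d, Rora, Foxp1, Magi1, Runx2, Zfp608, Lrmda, Zfp521 and Atxn1, with 17 to 33 closed regions each. These are long genes, and Pde4d, a cyclic AMP phosphodiesterase, had the most distal regions of them. At Pde4d 33 regions closed and 9 opened in Daxx-KO, while 12 closed and 23 opened in Daxx-WT, and at equal length the Daxx-KO counts were 17 and 18. Mecom (20 and 2), Rora (19 and 5) and each of the remaining genes at this end kept their excess at equal length. Zfp608 (12 and 8) lay closest to even among them.

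Mex3b, which encodes an RNA-binding protein, had the largest excess of opened regions together with Pid1 and Rbpj. Mex3b had 8 opened, 0 shared and 1 closed in Daxx-KO, against 13 opened and 0 closed in Daxx-WT. Rbpj, the DNA-binding partner of Notch receptors, had 9 opened, 7 shared and 2 closed regions. Fmo9 (6 opened), Stxbp6, Chd1, Smox, Zfp386, App and Cdc42ep3 followed, and all 10 genes also had more opened than closed regions in Daxx-WT. At equal length in Daxx-KO the same holds by construction, because only the LT-HSC list is shortened.

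Genes of stem cell identity lay on the closed side. Of 21 with a distal region, 17 had more closed regions, 1 more opened and 3 as many of each, beside 61.6% and 11.6% over all genes. At equal length 14 of 20 had more closed and 4 more opened regions, beside 32.9% and 37.2% over all. Prdm16 (16 closed, 5 shared, 2 opened) and Meis1 (16, 10 and 3), both factors of self-renewal, also lay on the closed side. In Daxx-WT 9 regions closed at Prdm16 and 12 at Meis1. At equal length Daxx-KO had 10 closed and 2 opened regions at Prdm16, and 12 and 3 at Meis1. Hlf, a marker of LT-HSCs, had 6 closed, 4 shared and 0 opened regions, of which 4 closed ones were in neither Daxx-WT list. At equal length Hlf had 2 closed, 3 shared and 1 opened region. Ly6a, the gene of Sca-1, had 1 shared and 1 opened region. At Kit, the receptor of stem cell factor, 12 regions closed and 2 opened in Daxx-KO, against 9 and 9 in Daxx-WT. At equal length the counts at Kit were 7 and 2 in Daxx-KO against 9 and 7 in Daxx-WT.

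The heptad of factors that bind together in stem and progenitor cells was divided. Runx1 had 10 closed, 15 shared and 11 opened regions, and Erg 5, 6 and 7. All 7 opened Erg regions and 10 of the 11 at Runx1 were in the Daxx-WT CMP list, which itself had 21 opened regions at Runx1. Fli1 (10 closed and 3 opened) and Lmo2 (8 and 2) lay on the closed side, with 5 and 4 and with 7 and 3 at equal length. At equal length Runx1 had 5 closed and 12 opened regions, and Erg 2 and 10.

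**Figure D3:**
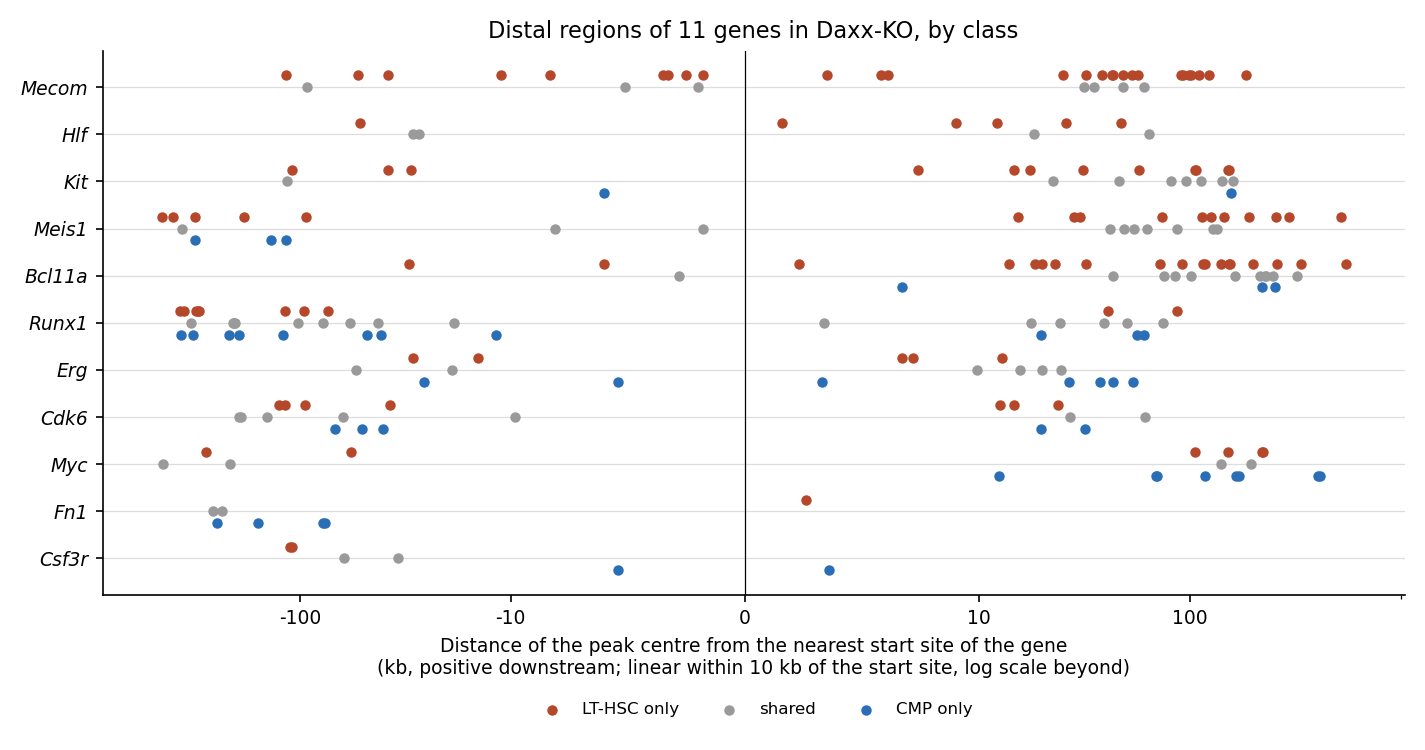
Distal regions of 11 genes in Daxx-KO (rows) by distance of the peak centre from the nearest start site of the gene in kb (x axis; linear within 10 kb, log scale beyond); each point is a region and colours mark the class. With the lists as deposited, Mecom and Hlf have closed and shared regions alone, while Runx1, Erg and Myc mix closed and opened ones.

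Myeloid lists depended on list length, as did all genes together. Of all genes 11.6% had more opened and 61.6% more closed regions, and at equal length 37.2% and 32.9%. Primary granule genes had 4 genes with more opened and 2 with more closed of 9 with a region, and at equal length 6 and 0. With every gene that has a start site within 50 kb of a region counted, they had 5 of each. Cst7 (cystatin F) had 2 opened regions, and Elane, Ctsg and Mpo (myeloperoxidase) 1 each, with no closed one at any of them. Ctsc, which encodes the protease that activates granule proteases, had 6 closed, 2 shared and 2 opened regions in Daxx-KO. The Daxx-WT counts at Ctsc were 2, 4 and 9. At equal length Ctsc had 3 closed and 3 opened regions in Daxx-KO against 1 and 6 in Daxx-WT. Of 14 granulocyte and monocyte fate factors, 3 had more opened and 7 more closed regions, and at equal length 8 and 2. Id2 had 5 closed, 22 shared and 8 opened regions, and Zeb2, a repressor active in monocyte and dendritic cells, 11, 10 and 3. At Zeb2 the Daxx-WT counts were 10 closed and 13 opened. At equal length Zeb2 had 9 closed and 7 opened regions in Daxx-KO against 11 and 9 in Daxx-WT. Irf8, a factor of monocytes, had 6 closed and 2 opened regions, and 5 and 4 at equal length.

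Late neutrophil genes had 2 of 10 genes with more opened and 4 with more closed regions, with Ltf (lactoferrin) at 2 opened and 0 closed. Fcnb, whose promoter opened, had 2 closed and 1 opened distal region. Monocyte and dendritic genes had 3 and 4 of 10, with Fn1 (fibronectin) at 4 opened and 1 closed and Cx3cr1 (the fractalkine receptor) at 2 and 0. F13a1, the gene of a clotting factor subunit, had 4 opened and 6 closed regions, and 4 of each at equal length. At equal length the counts were 5 and 3 of 9 for late neutrophil genes, and 6 and 1 of 10 for monocyte and dendritic genes. Shares over all genes were 11.6% and 61.6% as deposited, and 37.2% and 32.9% at equal length. Myeloid cytokine and Fc receptors had 0 genes with more opened and 5 of 9 with more closed regions, and 4 and 2 at equal length. Csf2rb2, a receptor gene for interleukin-3, had 2 closed, 1 shared and 0 opened regions. At Csf3r, the receptor of granulocyte colony-stimulating factor, 2 regions opened at 5.4 kb upstream and 3.6 kb downstream of a start site and 2 closed more than 100 kb upstream, and at equal length 2 opened and 0 closed.

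Megakaryocyte genes had 0 genes with more opened and 7 of 9 with more closed regions in Daxx-KO, against 3 and 2 of 9 in Daxx-WT. Over all genes the shares were 11.6% and 61.6% in Daxx-KO against 33.9% and 33.8% in Daxx-WT. Rab27b (6 closed, 0 opened), Cd9 (5 and 1) and F2rl2 (3 and 1) led them, with 2 and 1, 2 and 2, and 1 and 2 at equal length. At equal length the counts were 2 and 3 of 7 in Daxx-KO against 3 and 3 of 8 in Daxx-WT. The Daxx-KO shares over all genes were then 37.2% and 32.9%. Erythroid genes had 3 with more opened and 5 with more closed of 11, and the reverse, 5 and 3, at equal length. Zfpm1, the Gata1 partner Fog1, had 9 closed and 2 opened regions, and 8 and 5 at equal length. Gata1 itself had 1 shared distal region. Mast cell, basophil and eosinophil genes had 1 and 4 of 6, and 2 and 2 of 6 at equal length. The interleukin-33 receptor gene Il1rl1 had 3 opened and 0 closed regions.

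Lymphoid genes had 4 of 21 genes with more opened and 13 with more closed regions, and 10 and 5 at equal length. The shares over all genes, to be read beside each list here, were 11.6% and 61.6%. At equal length they were 37.2% and 32.9%, so all genes together turned as well. Bcl11a (19 closed, 11 shared, 3 opened) and Gata3 (12, 6 and 2) led the closed side, with 10 closed and 5 opened and with 5 and 3 at equal length, and Dntt, the gene of terminal transferase, had 2 opened and 0 closed. Il7r, the interleukin-7 receptor gene, had 2 opened and 1 closed. Cell cycle genes had 3 with more opened and 5 with more closed of 10, and the direction turned to 6 and 2 at equal length. Ccnd2 had 3 opened and 0 closed, Ccnd1 5 and 3, Myc 8 and 6, and Cdk6 5 and 7. Mki67, the gene of the proliferation marker Ki-67, had 2 opened and 6 closed. At equal length both Cdk6 (7 opened, 5 closed) and Mki67 (5 opened, 3 closed) turned. The AP-1 factors had 3 and 2 of 7, and 5 and 0 of 6 at equal length. Jun had 5 opened and 3 closed regions, and Fos 2 and 6, which turned to 4 and 3 at equal length. Interferon-stimulated and sensor genes had 4 with more opened and 6 with more closed of 18, and 8 and 2 at equal length. Housekeeping genes, listed as a comparison, had 0 and 6 of 9, and genes of other tissues 1 and 7 of 8. At equal length these were 2 and 3 of 8, and 1 and 4 of 5.

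**Figure D4:**
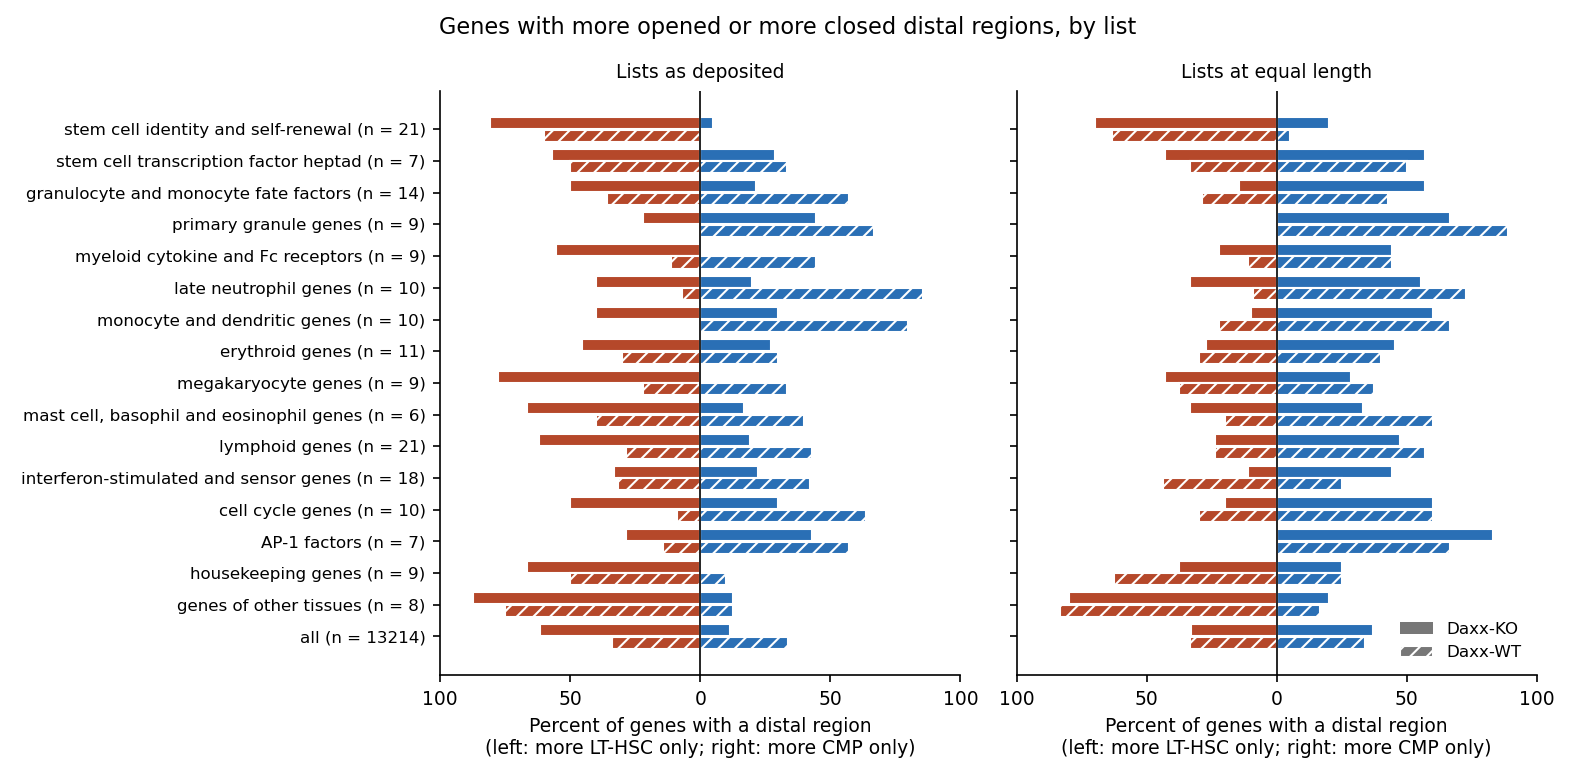
Percent of genes with a distal region (x axis) that have more closed regions (left, red) or more opened regions (right, blue) for each list (rows), in Daxx-KO (plain) and Daxx-WT (hatched), with lists as deposited and at equal length; n is the number of genes with a region in Daxx-KO as deposited. The stem cell list lies on the closed side in both panels (17 of 21 and 14 of 20 in Daxx-KO), and the primary granule list on the opened side (4 against 2, and 6 against 0), with lists as deposited and at equal length. In Daxx-KO only the LT-HSC list is shortened, which can move genes toward the opened side alone.

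The Daxx-WT lists place these regions. Of the 7253 regions that opened in Daxx-KO, 84.5% (83.7 to 85.3) were in the Daxx-WT CMP list, 75.8% in that list alone, 9.91% in the Daxx-WT LT-HSC list and 14.3% (1036 regions) in neither. Of the 23841 that closed, 47.1% were in the Daxx-WT LT-HSC list alone, 25.4% in both Daxx-WT lists, 4.80% in the Daxx-WT CMP list alone and 22.7% in neither. Altogether 7194 closed regions (30.2%) were present in Daxx-WT CMPs. At equal length of the 4 lists, 56.3% of opened and 25.1% of closed regions were in the Daxx-WT CMP list. Shared regions were in both Daxx-WT lists in 88.4% of cases.

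**Figure D5:**
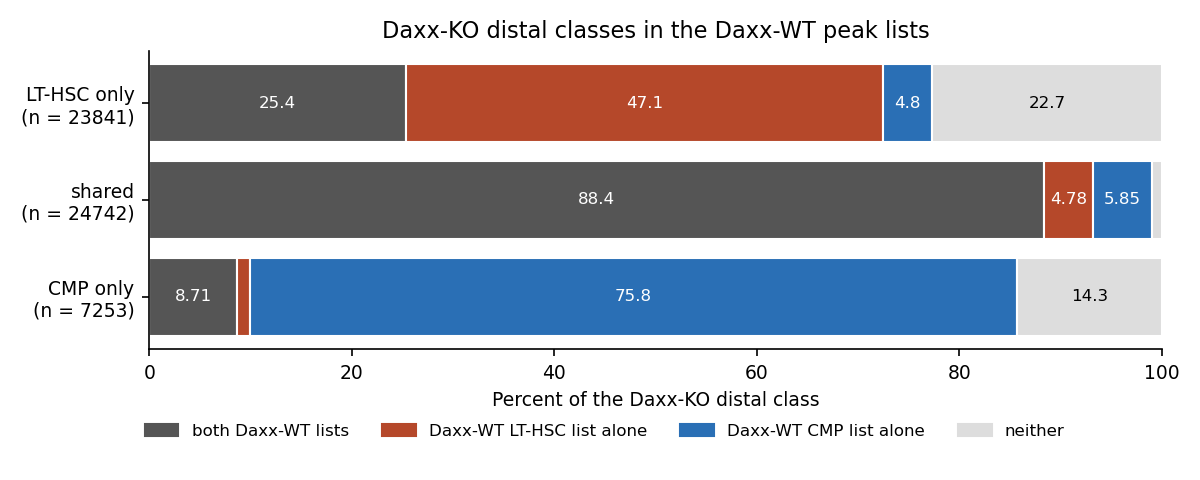
Percent of each Daxx-KO distal class (rows) found in both Daxx-WT lists, in 1 of them alone or in neither (x axis). Opened regions lay mostly in the Daxx-WT CMP list alone (75.8%), closed ones in the Daxx-WT LT-HSC list alone (47.1%) or in both (25.4%).

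Seen from Daxx-WT, 15803 distal regions opened between LT-HSCs and CMPs. The Daxx-KO CMP list held 6976 of them, or 44.1% (43.4 to 44.9), and 48.1% were in neither Daxx-KO list. At equal length the Daxx-KO CMP list held 60.1%. The regions held were wider, with a median of 572 bp against 448 bp. PU.1 letters lay in 12.8% of held and 11.8% of missing regions, C/EBP letters in 15.4% and 14.1%, and RUNX letters in 12.9% (12.1 to 13.7) and 9.74% (9.14 to 10.4). Among regions wider than the median of 502 bp, PU.1 letters lay in 10.8% of held and 7.45% of missing regions, and RUNX letters in 11.7% and 8.13%. By list, 28 of 61 such regions at granulocyte and monocyte fate factors were held (45.9%), 8 of 20 at primary granule genes (40.0%), 13 of 30 at monocyte and dendritic genes (43.3%) and 24 of 44 at lymphoid genes (54.5%). Their intervals all include the 44.1% over all regions. At the heptad 21 of 33 were held (63.6%, 46.6 to 77.8), with 12 of 21 at Runx1 and 6 of 8 at Erg. At equal length the heptad had 24 of 33 held (72.7%), beside 60.1% over all regions. Granulocyte and monocyte fate factors then stood as high, with 34 of 46 (73.9%), so the heptad was not set apart in that setting. Primary granule genes had 11 of 18 (61.1%), lymphoid genes 27 of 42 (64.3%) and monocyte and dendritic genes 10 of 20.

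Other libraries from mice that lack Daxx, which the classes did not use, separated the classes. The mice of these libraries differed in treatment or Cre line in part. The Daxx-KO GMP list held 65.9% of opened, 72.9% of shared and 10.7% of closed regions. The Daxx-KO LT-HSC list at 3 d.p.i. held 6.98% of opened, 75.3% of shared and 25.7% of closed regions. Per the study's methods, its mice received tamoxifen by intraperitoneal injection, and those of the untimed libraries by oral gavage. The Daxx-KO list of KLS cells (c-Kit+ Lin- Sca-1+ stem and progenitor cells, taken at 3 weeks) held 17.7%, 76.6% and 24.8%. Here Daxx was deleted by Mx1Cre after injections of polyinosinic:polycytidylic acid in place of tamoxifen. The lists at 3 d.p.i. and of KLS cells carry a fold enrichment from the authors' peak caller. At 3 d.p.i. its median was 6.35 for peaks at shared regions, 4.58 at closed (6152 peaks) and 4.18 at opened regions (500 peaks). Over all distal peaks of that list it was 5.69. In the Daxx-KO KLS list it was 6.36 at shared, 4.99 at closed and 5.19 at opened regions, against 5.86 over all distal peaks. Closed and opened regions thus changed order between the lists.

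By chromosome, 45.8 to 51.2% of distal LT-HSC peaks closed on the autosomes in Daxx-KO, 61.2% on chromosome X and 55.6% on chromosome Y, which had 20 closed regions. In Daxx-WT the autosomes ranged from 30.0 to 38.1%, and chromosome X stood at 42.8%. On the autosomes alone the log2 ratio of opened to closed regions in Daxx-KO was -1.71.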

How the data were processed

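Groups came from the titles of the samples. The members, gene lists and motifs were chosen with earlier results of these data known. The authors deposited untimed peak lists as positions on mm10, 1 per population and pooled over libraries, with no score. Their processing notes name CASAVA 1.8.4, cutadapt 1.13, STAR 2.5.3 and bedtools, and the peak caller is not given in the sources used here. Lists at 3 d.p.i. and of KLS cells were deposited with a fold enrichment (a ratio over background, by the authors' peak caller), and intervals listed for several summits were merged, keeping the largest value. The 3 diffReps tables deposited hold the authors' own comparisons of other groups and were not used.

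Distances used start sites of GENCODE M21, and letters came from RefSeq GRCm38.p6, whose chromosome lengths hold every peak. A distal region was assigned to the protein-coding gene with the nearest start site to its centre. Of 230 list genes, 229 are annotated as protein-coding. Named were the 10 genes with the largest excess in each direction, up to 3 per list and direction, and 27 fixed loci. Promoter changes of list genes and the printed promoters were chosen after their values were seen. Scripts ran under Python 3.11.15 with pandas 2.3.3, matplotlib 3.10.9 for the plots, samtools 1.23.1 and pysam 0.24.0 for letters, and SciPy 1.17.1 and numpy 2.4.6. Overlaps, distances and motif matches were tested on simulated data, overlaps against bedtools 2.31.1. The alternatives were other distances, overlaps, list lengths, widths, start sites, windows and gene assignments. Some genes of the lists are counted but not reported here by name.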

Additional observations from a re-analysis of the deposited data

Results flagged for a closer look

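The values below differed in sign between the genotypes, though some Daxx-WT values lay close to even. With 1 list per group, none of these differences was tested. The log2 ratio of opened to closed distal regions was -1.72 in Daxx-KO and 0.05 in Daxx-WT. Over all genes, those with more opened regions minus those with more closed regions numbered -6607 in Daxx-KO. In Daxx-WT the genotype stood close to even, with 4585 genes with more opened and 4566 with more closed regions. The same subtraction was below 0 in Daxx-KO and above 0 in Daxx-WT for several lists. In Daxx-KO it was -4 for granulocyte and monocyte fate factors, -5 for myeloid cytokine and Fc receptors and -2 for late neutrophil genes. It was -1 for monocyte and dendritic genes, -7 for megakaryocyte genes and -9 for lymphoid genes. For interferon-stimulated and sensor genes and for cell cycle genes it was -2 each. Daxx-WT megakaryocyte genes (3 with more opened, 2 with more closed) and interferon-stimulated and sensor genes (8 and 6) lay close to even. Daxx-WT late neutrophil genes (12 and 1) did not. The lengths of the lists moved with this difference: the Daxx-KO CMP list was the shortest of the 4 with 50590 peaks and the Daxx-KO LT-HSC list the longest with 70455. With all 4 lists at 50590 peaks, the log2 ratios were 0.06 in Daxx-KO and 0.03 in Daxx-WT. Such small ratios largely follow from equal lengths, so they do not test the difference.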

How the results depend on the processing

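Opened, shared and closed Daxx-KO distal counts stayed within 1.5 times of 7253, 24742 and 23841, and their direction held, with distal limits of 2.5 or 5 kb, a stricter overlap set by the length of the shorter peak, a gap of 500 bp, protein-coding start sites, and every peak set to 500 bp (added after seeing the data). At equal length closed and opened counts were 12935 and 13504, among peaks above the median width of each list 11184 and 3872 (shared 7627), among those wide peaks compared with the whole other list 7071 and 1554 (shared 11740), and with the list at 3 d.p.i. 7095 and 13038. Under these 4 settings in the same order, the log2 ratio was 0.06, -1.53, -2.19 and 0.88 in Daxx-KO, the Daxx-WT ratio moved to 0.08 among wide peaks, to -0.16 for wide peaks compared with the whole other list and to 3.34 at 3 d.p.i., and the difference was 0.03, -1.61, -2.03 and -2.46. With every peak at 500 bp the 3 values were -1.60, 0.09 and -1.69, and the Daxx-WT ratio was 0.01 with distal at 5 kb. Promoter counts closed and opened were 7910 and 1683 within 2.5 kb, and 1925 opened at equal length. At equal length of 4 lists, closed regions were in the Daxx-WT CMP list in 25.1%, the Daxx-WT LT-HSC list in 75.1% and neither in 21.3%, and opened regions in 56.3%, 14.9% and 38.6%. Genes with more opened regions then numbered 4517 and those with more closed 3996. Motifs lower in opened regions numbered 4 with 200 bp on each side, against 2. At equal length the CTCF ratio reversed to 1.49, and genes with more opened minus more closed regions became 1 for the heptad, 6 for granulocyte and monocyte fate factors, 2 for myeloid receptors, 2 for late neutrophil genes, 5 for monocyte and dendritic genes, 2 for erythroid genes, 5 for lymphoid genes, 6 for interferon-stimulated genes and 4 for cell cycle genes. With all genes within 50 kb, AP-1 factors became -3 and primary granule genes moved from 2 to 0. Shorter lists hold fewer peaks by construction, and the cause of the other moves was not tested.

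No paired analysis was possible because each list pools the libraries of its group, and leaving out a library could not be run for the same reason. With no depth known, a region missing from a list was not shown to be closed.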

Other observations

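The 1036 distal regions that opened in Daxx-KO and lay in neither Daxx-WT list held RUNX, GATA and MYB letters more often than all opened regions, of which they are a part. RUNX letters lay in 20.0% (17.7 to 22.5) of them, against 14.1% of all opened regions. GATA letters lay in 6.18% (4.87 to 7.81) against 3.45%, and MYB letters in 6.47% (5.12 to 8.13) against 4.11%. PU.1 letters lay in 10.1% (8.44 to 12.1) against 12.5% (11.7 to 13.3), with overlapping intervals, and IRF letters in 5.69% against 9.33%. These regions were narrower, with a median of 451 bp against 509 bp for opened regions in the Daxx-WT CMP list, and repeat bases made up 19.8% of their windows against 15.8%. The Daxx-KO GMP list held 24.8% of them and the Daxx-WT GMP list 34.4%, while of opened regions in the Daxx-WT CMP list these lists held 73.4% and 83.9%. Each set is counted from 1 pooled list, and this comparison was chosen after its values were seen.

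The 5406 closed regions in neither Daxx-WT list stood close to all closed regions in their letters, with 4.42% for PU.1, 8.23% for RUNX and 3.27% for HOX-PBX. The Daxx-KO LT-HSC list at 3 d.p.i. held 5.75% of them, against 23.0% of closed regions that were in the Daxx-WT LT-HSC list alone.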
